A study of Mus musculus with 6 samples.

Results

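The genes described here are 10 central components of the unfolded protein response and of protein folding in the endoplasmic reticulum (ER): Hspa5, Hsp90b1, Dnajb9, Sdf2l1, Calr, Canx, Pdia4, Pdia6, Xbp1 and Atf6. They were chosen by symbol, and each matched 1 row among the 22298 genes of the deposited mRNA table. All 10 had enough counts to be among the 13082 genes tested.

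Secreted and membrane proteins fold in the ER with the help of chaperones, lectins and enzymes that form disulfide bonds. When unfolded protein accumulates there, the sensors IRE1, ATF6 and PERK are activated. IRE1 splices Xbp1 mRNA so that it encodes an active transcription factor, ATF6 is cut in the Golgi to release another, and both raise transcription of ER chaperone genes. PERK phosphorylates the initiation factor eIF2 and so favours translation of ATF4. A gene-level count of Xbp1 does not separate spliced from unspliced mRNA, and a count of Atf6 says nothing of its cleavage.

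METTL3, the protein depleted in the series, is the catalytic subunit of the enzyme complex that writes N6-methyladenosine into mRNA. GC-1spg is an immortalised mouse line used as a model of spermatogonia. The si-METTL3 group held 3 libraries of GC-1spg cells transfected with an siRNA against Mettl3, and the si-NC group held 3 libraries of the same line transfected with a control siRNA. All cells grew in DMEM with 10% FBS, were transfected at 60% density and were collected after 48 h. The labels print the same siRNA sequence for both groups and tag the si-NC cells as untreated, so the control's own sequence is unknown. Whether the replicates were separate cultures is not stated, and the p-values therefore measure the spread between these 6 libraries, which may be technical.

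The mRNA counts summed to between 22146057 and 31469144 in the si-METTL3 libraries and to between 29679593 and 37698956 in the si-NC libraries. Mettl3 itself had 4.44, 5.97 and 5.52 CPM in si-METTL3 and 17.3, 19.2 and 18.6 CPM in si-NC. It averaged 5.31 ± 0.785 CPM in si-METTL3 and 18.3 ± 0.974 CPM in si-NC (CPM, counts scaled to the normalised library size; SD, n = 3 each), with a log2 fold change of -1.79 (edgeR adjusted p = 0.000579). Of 13 germ cell and spermatogonial markers, Sall4 and Nanos2 were at 0 in every library, Dazl had 1 count in all, and Ddx4 had at most 7 in any library, while others were detected. Uchl1 had 865 to 1291 counts in si-METTL3 and 1057 to 1516 in si-NC, and Id4 had 35 to 43 and 44 to 70. Gfra1, with 89 to 140 counts in si-METTL3 and 78 to 118 in si-NC, was the 1 gene of this list that rose (edgeR adjusted p = 0.0389). Summed over 12 lung markers such as Sftpc, the level was 101, 101 and 67.1 CPM in si-METTL3 replicates 1, 2 and 3 and 3.73, 2.29 and 63.9 CPM in si-NC replicates 1, 2 and 3 (CPM of the unnormalised total). None of these 12 was at 0 in all libraries, and 0 of the 11 tested passed edgeR's threshold. Blood, macrophage and endothelial markers also varied between libraries, with si-NC replicate 3 the highest of its group in each list. Their sums were 12.4 to 19.1, 19.7 to 28.1 and 22.7 to 26.7 CPM in si-METTL3, and 0.448 to 11.8, 5.24 to 18.1 and 14.7 to 22.0 CPM in si-NC. In these lists 0 of 4, 0 of 5 and 0 of 5 tested genes passed edgeR's threshold. Of the markers of secretory and plasma cells, which are rich in ER, Mzb1, Prss1 and Pnliprp1 were at 0 in every library, and the list summed to 283 to 306 CPM in si-METTL3 and 203 to 238 CPM in si-NC. Nearly all of that sum was Sdc1, a gene that many epithelial cells express too, which had 9563 of 9626 counts in si-METTL3 replicate 1. Of this list 2 genes were tested and 2 rose. Sdc1 had a log2 fold change of 0.35 (edgeR adjusted p = 0.0367). Cela1, with 53 to 63 counts in si-METTL3 and 28 to 39 in si-NC, had 1.24 (edgeR adjusted p = 0.0201). Sertoli cell markers summed to 538 to 581 CPM in si-METTL3 and 293 to 324 CPM in si-NC. Of these 6 genes Trf, Clu and Wt1 rose, Gata4 fell, and Sox9 and Amh did not pass the test. The part of any of these marker lists in the results below was not tested.

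Per transcript length, the 10 genes covered a wide range of levels. Over the 6 libraries the lectin chaperone genes Calr and Canx both averaged 288 FPKM (fragments scaled to transcript length and library size, the deposited unit) and ranked 192nd and 193rd in the table. Hspa5 followed at 243 FPKM, Hsp90b1 at 139.9, Pdia6 at 88.7, Pdia4 at 49.8 and Sdf2l1 at 25.0 FPKM. The transcription factor genes were lower, with 17.1 FPKM for Xbp1 and 7.37 for Atf6, and the co-chaperone gene Dnajb9 was lowest at 6.23 FPKM. Neighbours in this order were not always separated. The single-library FPKM of Calr (314 to 326 in si-METTL3 and 224 to 278 in si-NC) overlapped those of Canx (286 to 360.3 and 212 to 301), and Atf6 (6.11 to 6.97 and 7.28 to 9.23) overlapped Dnajb9 (5.28 to 6.85 and 4.98 to 8.06). Together the 10 genes made up 0.377% to 0.438% of all mRNA counts in si-METTL3 and 0.288% to 0.34% in si-NC.

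The promoters of several of these genes carry the ER stress response element, the motif through which ATF6, together with NF-Y, acts on chaperone genes. It was searched for as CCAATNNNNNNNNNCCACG on both strands in RefSeq promoter windows of 300 bases (250 before and 50 after the start site, GRCm38.p6), which 9 of the 10 genes had. An exact match stood in the windows of 5 of these 9 genes (Hspa5, Hsp90b1, Calr, Canx and Pdia6, with 6 matches among them) and in 0.12% of 32544 promoter windows. With up to 1 mismatch among the 10 fixed letters, Pdia4 and another site of Hsp90b1 were added, and the share of all windows was 1.51%. The core of the XBP1 element, TGACGTGG, was in 0.682% of all windows on either strand and in none of the 9. Its first 6 letters, TGACGT, were in 7.55% of all windows and in those of Hspa5 and Canx. Forms of the element with another last letter were not searched for. A match is a run of letters and not a measured binding site. The sites are shown on the strand of the gene with 5 bases on either side, the matching fixed letters in capitals, to let the copies in 6 of the genes be compared:
Hspa5, 65 bases before the start, chr2:34772025-34772043, plus strand: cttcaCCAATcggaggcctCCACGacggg
Hsp90b1, 212 bases before, chr10:86705638-86705656, minus strand: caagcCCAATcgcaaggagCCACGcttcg
Hsp90b1, 107 bases before, chr10:86705533-86705551, minus strand, motif reversed: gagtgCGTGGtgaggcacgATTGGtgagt
Hsp90b1, 172 bases before, chr10:86705598-86705616, minus strand, motif reversed, 1 mismatch: ccgcaCcTGGacagttccgATTGGcgggc
Calr, 162 bases before, chr8:84847075-84847093, minus strand, motif reversed: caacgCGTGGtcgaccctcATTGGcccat
Canx, 145 bases before, chr11:50325800-50325818, minus strand: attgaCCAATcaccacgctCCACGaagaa
Pdia6, 98 bases before, chr12:17266491-17266509, plus strand: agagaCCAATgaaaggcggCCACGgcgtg
Pdia4, 108 bases before, chr6:47813602-47813620, minus strand, motif reversed, 1 mismatch: aaccgaGTGGcagcccgtgATTGGtggtc

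The whole window of Hspa5, the gene with the smallest adjusted p of the 10, and that of Hsp90b1, the gene with the largest fold change, are shown for context, with the fixed letters of exact matches in capitals:
Hspa5, chr2:34771840-34772139, plus strand: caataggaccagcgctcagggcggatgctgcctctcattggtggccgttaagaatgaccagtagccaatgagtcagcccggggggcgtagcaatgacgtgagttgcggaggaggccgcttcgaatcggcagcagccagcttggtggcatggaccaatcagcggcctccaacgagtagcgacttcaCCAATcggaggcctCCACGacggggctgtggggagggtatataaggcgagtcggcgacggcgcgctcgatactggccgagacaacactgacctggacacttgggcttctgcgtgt
Hsp90b1, chr10:86705395-86705694, minus strand: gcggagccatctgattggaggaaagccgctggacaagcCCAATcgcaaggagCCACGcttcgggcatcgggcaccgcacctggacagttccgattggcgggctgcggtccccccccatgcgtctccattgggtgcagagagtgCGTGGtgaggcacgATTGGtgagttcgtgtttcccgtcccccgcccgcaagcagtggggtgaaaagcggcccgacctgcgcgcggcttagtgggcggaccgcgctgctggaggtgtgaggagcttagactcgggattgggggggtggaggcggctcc

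In the comparison of si-METTL3 with si-NC cells, Hspa5 and Sdf2l1 of the BiP chaperone system rose by modest amounts, while Dnajb9 and Hsp90b1 did not pass the test. In bulk RNA, more RNA per cell and more cells that express a gene cannot be told apart. Hspa5 encodes BiP, the ER member of the HSP70 family and the chaperone that keeps the UPR sensors inactive. Its level was 852, 884 and 935 CPM in the si-METTL3 libraries, against 709, 675 and 687 CPM in the si-NC libraries. The groups did not overlap, and the lowest si-METTL3 library stood well above the highest si-NC one. Hspa5 rose 1.29-fold (log2 fold change 0.37, SE 0.06, edgeR adjusted p = 0.0115). Replicate 3 of si-NC, whose lung marker level was like that of the si-METTL3 libraries, lay between the other si-NC libraries for this gene. What part the lung markers have in the difference between the groups was not tested.

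Sdf2l1, which encodes a small ER protein found in BiP complexes, had 38.4, 38.9 and 40.0 CPM in si-METTL3 and 28.8, 24.7 and 30.7 CPM in si-NC. All si-METTL3 libraries were higher than every si-NC library, and it rose 1.39-fold (log2 fold change 0.48, SE 0.10, edgeR adjusted p = 0.0213). Dnajb9 encodes ERdj4, an ER J-domain co-chaperone of BiP that also counteracts IRE1. Its libraries were interleaved, with 15.5, 19.3 and 20.6 CPM in si-METTL3 and 17.2, 23.9 and 15.2 CPM in si-NC (log2 fold change -0.02, SE 0.19, edgeR adjusted p = 0.952). Its highest level was in si-NC replicate 2.

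Hsp90b1 encodes GRP94, the HSP90 chaperone of the ER. Its CPM were 423, 684 and 737 in si-METTL3 and 281, 508 and 235 in si-NC. Replicate 2 of si-NC exceeded si-METTL3 replicate 1, so the groups overlapped. The log2 fold change of 0.85 was the largest of the 10 genes, but its SE was 0.32 and it did not pass the threshold (edgeR adjusted p = 0.108). Without si-NC replicate 2 the log2 fold change was 1.25 and passed (edgeR adjusted p = 0.0116). In the other fits that left out a library it lay between 0.61 and 1.03 and did not pass, with edgeR adjusted p of 0.0846 to 0.282. The pseudogene 1810014B01Rik lies opposite Hsp90b1, and reads of the pair cannot be separated if the counting ignored strand, which is not stated. The processed transcript Gm15344 overlaps Hsp90b1 on the same strand, so counting by strand would not separate that pair.

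Calr and Canx encode calreticulin and calnexin, the soluble and the membrane-bound lectin that hold newly made glycoproteins until they fold. For Calr the libraries had 847, 859.9 and 839.9 CPM in si-METTL3 and 695, 591 and 750.3 CPM in si-NC. They did not overlap, and the si-METTL3 libraries lay close together while si-NC replicate 2 was the lowest. The log2 fold change of 0.32 (SE 0.09) fell just short of the threshold (edgeR adjusted p = 0.0522). Canx had 1032, 1216 and 1301 CPM in si-METTL3 and 828, 1105 and 761 CPM in si-NC. Here si-NC replicate 2 was the highest of its group and exceeded si-METTL3 replicate 1 (log2 fold change 0.40, SE 0.15, edgeR adjusted p = 0.114). Without si-NC replicate 2 Canx passed (log2 fold change 0.57, edgeR adjusted p = 0.00949). In the other fits that left out a library it did not. Relative to Calr, Canx in FPKM was 0.878, 1.11 and 1.11 in si-METTL3 and 0.842, 1.34 and 0.764 in si-NC, so this ratio varied more within si-NC than between the groups.

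Pdia4 and Pdia6 encode protein disulfide isomerases, known as ERp72 and P5. Pdia4 had 165, 165 and 167 CPM in si-METTL3 and 128, 108 and 133 CPM in si-NC. The groups were separate, and it rose 1.35-fold (log2 fold change 0.43, SE 0.09, edgeR adjusted p = 0.0208). Pdia6 had 243, 231 and 248 CPM in si-METTL3 and 229, 190.2 and 229.6 CPM in si-NC. Its groups were separated only narrowly, and the log2 fold change of 0.15 (SE 0.09) did not pass (edgeR adjusted p = 0.266). The FPKM ratio of Pdia4 to Pdia6 was 0.602, 0.638 and 0.596 in si-METTL3 and 0.497, 0.503 and 0.516 in si-NC, so the ratio was higher in every si-METTL3 library. Pdia6 overlaps Atp6v1c2 on the opposite strand, which limits its value in the same way as 1810014B01Rik does for Hsp90b1.

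The genes of the transcription factors were lower in si-METTL3, without passing the threshold over all 6 libraries. Xbp1 had 36.2, 30.9 and 36.1 CPM in si-METTL3 and 44.1, 38.7 and 46.5 CPM in si-NC (log2 fold change -0.32, SE 0.11, edgeR adjusted p = 0.0772). Atf6 had 56.1, 53.5 and 61.8 CPM in si-METTL3 and 72.2, 80.6 and 65.3 CPM in si-NC (log2 fold change -0.35, SE 0.10, edgeR adjusted p = 0.0551). With a library left out, Xbp1 passed only without si-NC replicate 2 (log2 fold change -0.40, edgeR adjusted p = 0.0221). Atf6 passed only without si-NC replicate 3 (-0.45, edgeR adjusted p = 0.0355). In CPM every si-METTL3 library lay below every si-NC library for both genes. In FPKM the groups overlapped for Xbp1, with 16.7, 14.7 and 17.0 in si-METTL3 and 18.5, 16.1 and 19.2 in si-NC. Its log2 fold change was -0.15 in both limma fits on FPKM (limma adjusted p = 0.314 and 0.309). The point estimates of Xbp1 and Atf6 were opposite in sign to those of the chaperone and isomerase genes other than Dnajb9.

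**Figure D1:**
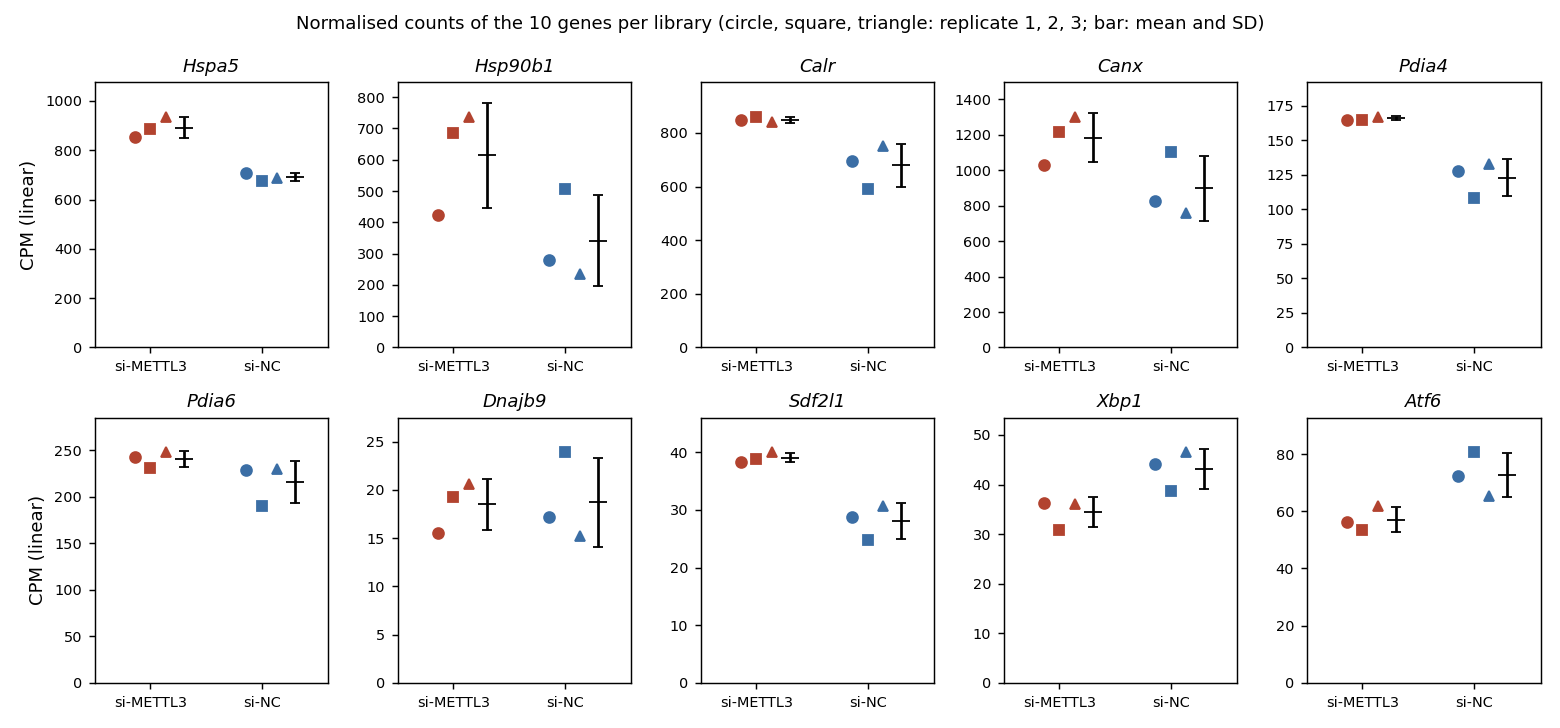
CPM (linear axis from 0) of the 10 genes in each library, si-METTL3 on the left and si-NC on the right of each panel; symbols mark replicates 1, 2 and 3, and the bars give the mean and SD of the 3 libraries. Hspa5, Sdf2l1 and Pdia4 are clearly separated between groups, whereas si-NC replicate 2 (square) lies in or near the si-METTL3 range for Hsp90b1, Canx and Dnajb9.

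Counted together, 3 of the 10 genes passed the threshold, all 3 higher in si-METTL3 (edgeR, p adjusted over all tested genes and below 0.05). Across all tested genes, 18.9% passed, 8.67% as higher and 10.2% as lower. None of the 10 passed as lower by edgeR, whereas DESeq2 called Atf6, and at an unadjusted p under 0.05 edgeR had 8 of the 10 genes in either direction, against 35.7% of all tested genes. The CPM of the groups did not overlap for 5 genes that were higher and 2 that were lower, against 20.2% and 21.3% of all tested genes. The median log2 fold change of the 10 was 0.34, and that of all tested genes was 0.03.

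The calls depended on single libraries. None of the 10 genes passed edgeR's threshold when replicate 2 of si-METTL3, replicate 3 of si-METTL3 or replicate 1 of si-NC was omitted (0 each; 5, 6 and 5 at an unadjusted p under 0.05). Of all tested genes 5.15%, 4.99% and 5.66% passed in these fits. At an unadjusted p under 0.05 the fits had 3434 of 13331, 3425 of 13331 and 3422 of 13297 genes. Omitting replicate 1 of si-METTL3 left 1 gene (Hspa5) past it, against 10.3% of all tested genes. Omitting replicate 3 of si-NC, the control library with lung markers, left 5 (Hspa5, Calr, Pdia4, Sdf2l1 and Atf6), against 12.2%. Omitting replicate 2 of si-NC left 7, against 36.8%. These were Xbp1 as lower and Hspa5, Hsp90b1, Calr, Canx, Pdia4 and Sdf2l1 as higher. The count among the 10 and the share of all genes called thus moved together over these fits. The direction was steadier than the call: the log2 fold changes ranged from 0.33 to 0.38 for Hspa5, 0.34 to 0.46 for Pdia4 and 0.39 to 0.52 for Sdf2l1 over these 6 fits, with edgeR adjusted p up to 0.0654, 0.0853 and 0.0884. Only Dnajb9 among the 10 changed sign, between -0.18 and 0.19.

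**Figure D2:**
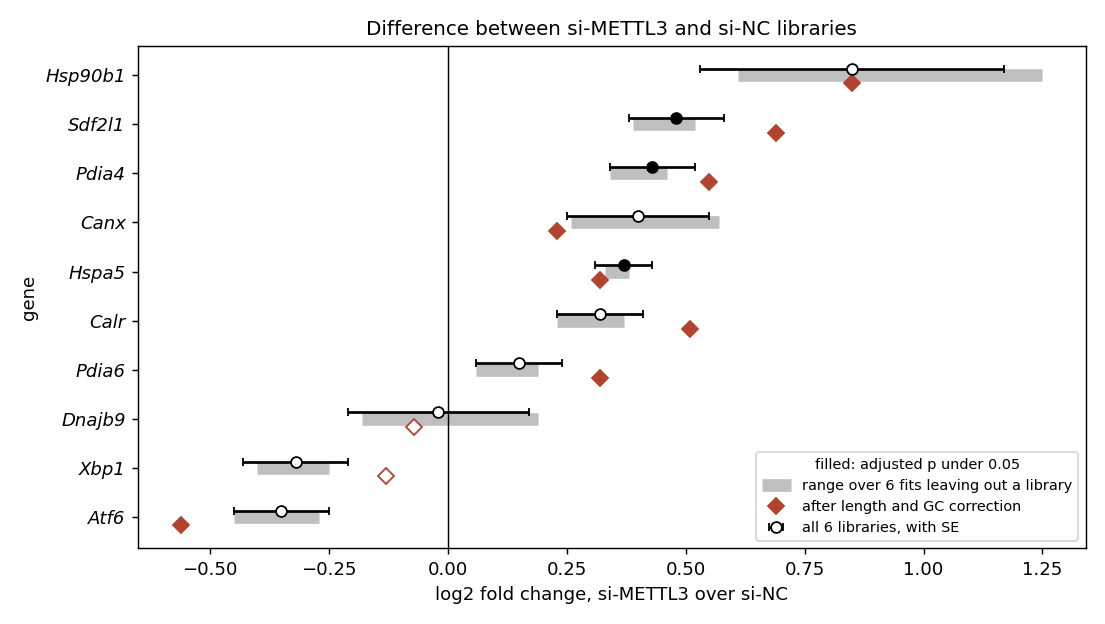
Log2 fold change of si-METTL3 over si-NC for each gene: circles with SE from all 6 libraries, grey bars the range over the 6 fits that each leave out a library, diamonds the value after length and GC correction; filled symbols passed an adjusted p of 0.05. The 3 filled circles (Sdf2l1, Pdia4, Hspa5) lie between 0.37 and 0.48, and the grey bar of Hsp90b1 is the widest, from 0.61 to 1.25.

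Within si-NC the 10 genes deviated in opposite directions, in relation to the base composition of their transcripts. In si-NC replicate 2, the genes with the lowest GC content stood above the mean of the other si-NC libraries: Dnajb9 (40.6% GC) by 47.9%, Canx (42.2%) by 39.1% and Hsp90b1 (43.8%) by 96.7%. Atf6 (46.0% GC) was 17.3% above it. The genes of higher GC content were lower, with differences of -17.1% for Sdf2l1 (56.7% GC), -18.2% for Calr and -17.5% for Pdia4 (47.6%). Hspa5 (45.6%) differed by -3.3%. Over the 10 genes the correlation of this difference with GC content was -0.71, a description of points that share the same libraries. Deviations from the group means in the 6 libraries correlated at 0.99 between Canx and Hsp90b1 and at 0.98 between Calr and Pdia4, but at -0.85 between Canx and Calr.

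The same dependence was measured over 11805 genes. The slope of the log2 level per 10 percentage points of GC was 0.114, -0.065 and -0.152 in si-METTL3 replicates 1, 2 and 3, and 0.107, -0.221 and 0.216 in si-NC replicates 1, 2 and 3. Per doubling of transcript length it was 0.045, 0.078 and 0.086 in si-METTL3 and -0.085, 0.004 and -0.128 in si-NC. Length slopes were thus higher in every si-METTL3 library than in any si-NC library, while GC slopes overlapped. A correction for length therefore also removes any difference between the groups that follows transcript length. Whether that difference was technical was not tested.

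When each library was corrected for length and GC content, the spread within si-NC narrowed. The coefficient of variation was smaller for 5 of the 10 genes in si-METTL3, with a median of 4.8% after and 6.11% before correction. In si-NC it was smaller for 9 of the 10, with a median of 3.1% after and 10.9% before. The exception was Hspa5, at 6.47% after and 2.49% before. Corrected Canx levels were 1092, 1105 and 1125 CPM in si-METTL3 and 929, 949 and 948 CPM in si-NC, which no longer overlapped. Corrected Atf6 levels were 54.9, 49.0 and 55.1 CPM in si-METTL3 and 80.0, 77.1 and 77.2 CPM in si-NC. Corrected Hsp90b1 levels were 446, 671 and 694 CPM in si-METTL3 and 288, 459 and 259 CPM in si-NC, so that si-NC replicate 2 still stood apart. The groups overlapped after correction for Hsp90b1, Xbp1 and Dnajb9.

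After this correction 7 of the 10 genes passed as higher and 1 as lower, against 15.5% and 13.0% of all tested genes. Sdf2l1 reached a log2 fold change of 0.69 (edgeR adjusted p = 0.00107), Pdia4 0.55 (0.000993), Calr 0.51 (0.000542), Hspa5 0.32 (0.00472), Pdia6 0.32 (0.00355), Canx 0.23 (0.00232) and Hsp90b1 0.85 (0.0403). Atf6 fell by 0.56 on the log2 scale (edgeR adjusted p = 0.000995). Xbp1 was closer to 0 than before, at -0.13 (edgeR adjusted p = 0.236). Dnajb9 remained without a detected difference (-0.07, edgeR adjusted p = 0.494). The median over the 10 genes was 0.32, and 0.04 over all tested genes.

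**Figure D3:**
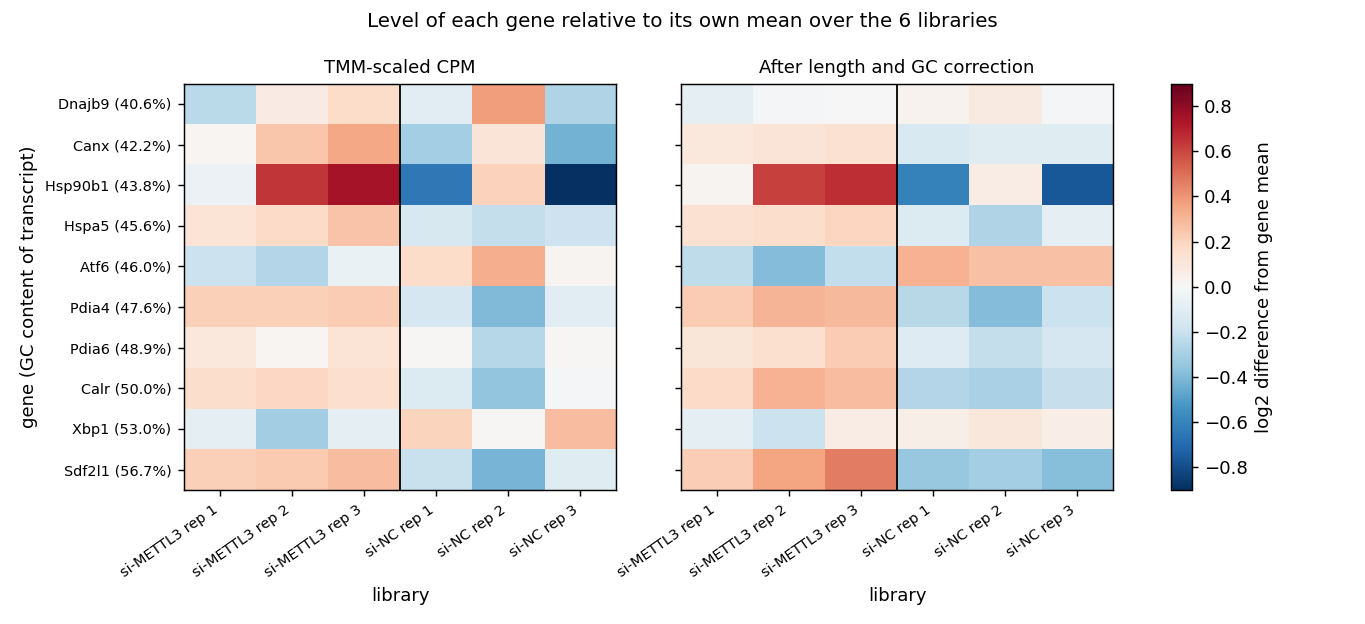
Each gene's log2 level relative to its own mean over the 6 libraries (colour), with genes in order of transcript GC content and si-METTL3 libraries left of si-NC, before (left) and after (right) correction for transcript length and GC. Before correction si-NC replicate 2 is high for the GC-poor Dnajb9, Canx and Hsp90b1 and low for Calr and Sdf2l1; after it si-NC replicate 2 stands apart mainly for Hsp90b1, by 67.8% above the mean of the other si-NC libraries.

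In the authors' deposited table, which used a test not named in the sources here, 6 of the 10 genes had an adjusted p under 0.05, 5 higher and 1 lower. At that threshold, 5.44% of all 22298 genes in the authors' deposited table were higher and 6.44% lower. That total includes genes with too few counts to be among the 13082 tested here. The authors' deposited table gives Hspa5 a log2 fold change of 0.41 (adjusted p = 0.00127), Pdia4 0.45 (0.00308), Sdf2l1 0.50 (0.00319), Hsp90b1 0.87 (0.0228), Calr 0.34 (0.0358) and Atf6 -0.33 (0.047). DESeq2 run on the same counts also called 6 of the 10 genes, 5 higher and 1 lower, against 9.71% and 11.6% of the 12591 genes to which it gave an adjusted p.

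In the further lists of ER and heat shock genes 29 of 141 tested genes passed, or 20.6%, which is near the 18.9% of all tested genes. Of all tested genes 8.67% passed as higher and 10.2% as lower. Among 23 tested ER chaperones and co-chaperones outside the 10, 3 rose and 1 fell (median log2 fold change 0.03). The BiP co-chaperone genes Dnajc3 (0.63, edgeR adjusted p = 0.0462) and Dnajc10 (0.56, 0.0109) and the prolyl isomerase gene Fkbp14 (0.75, 0.00497) rose. Sdf2, the relative of Sdf2l1, fell by 0.50 on the log2 scale (edgeR adjusted p = 0.0115). The most abundant of them per length, the collagen chaperone gene Serpinh1 (261 FPKM), had a log2 fold change of 0.11 (edgeR adjusted p = 0.378).

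Of 19 tested disulfide isomerases and oxidases, 2 rose and 1 fell (median 0.04), against 8.67% and 10.2% of all tested genes. Pdia3 encodes ERp57, the isomerase that works with calreticulin and calnexin. Its CPM were 797, 804 and 848 in si-METTL3 and 666, 652 and 663 in si-NC, with no overlap, and it rose by a log2 fold change of 0.31 (edgeR adjusted p = 0.0155). The ER oxidase gene Ero1lb rose as well (0.73, edgeR adjusted p = 0.0159), and Erp29 fell by 0.35 on the log2 scale (edgeR adjusted p = 0.0336).

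ER-associated degradation, which returns misfolded proteins to the cytosol, had 2 of 29 tested genes higher and 1 lower (median -0.09). The shares of all tested genes were 8.67% higher and 10.2% lower. Herpud1 (0.37, edgeR adjusted p = 0.0325), a scaffold of the ubiquitin ligase complex, and Edem1 (0.25, 0.043), a mannosidase-like protein, rose, and the ubiquitin-conjugating enzyme gene Ube2g2 fell by 0.51 on the log2 scale (0.0163). Vcp, the most abundant gene of the list at 162 FPKM, encodes the ATPase that extracts proteins from the ER membrane and had a log2 fold change of 8.91e-05 (SE 0.12). Among 32 genes of the translocon, signal peptidase and N-glycosylation, 4 rose and 2 fell (median -0.05): Spcs3 (0.70), Spcs2 (0.39), Ganab (0.32) and Stt3b (0.27) were higher, and Srprb (-0.41) and Dad1 (-0.37) lower. Rpn2, the most abundant of these per length at 166 FPKM, had a log2 fold change of -0.09 (edgeR adjusted p = 0.442), which turned to 0.04 after length and GC correction.

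Of 11 tested sensors and activators of the response, 1 rose and none fell by edgeR, against 8.67% and 10.2% of all tested genes. At an unadjusted p under 0.05, 2 were higher and 2 lower, and by DESeq2 1 was higher and 1 lower. The gene that rose by edgeR was Creb3l2, which encodes an ER-anchored transcription factor related to ATF6. It had 195, 197 and 209.8 CPM in si-METTL3 and 116, 110 and 123 CPM in si-NC (log2 fold change 0.78, SE 0.07, edgeR adjusted p = 0.00128), and its call held in 6 of 6 fits without a library. The sensor genes Ern1 (0.02) and Eif2ak3 (0.41), which encode IRE1 and PERK, and the ATF6 proteases' genes Mbtps1 (0.23) and Mbtps2 (0.49) did not pass, with edgeR adjusted p of 0.807, 0.302, 0.0637 and 0.347. These 4 were named after their values were seen. Creb3, the most abundant of the list per length at 62.8 FPKM, missed the threshold narrowly (-0.33, edgeR adjusted p = 0.0501).

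The ATF4 and CHOP outputs, grouped here as the PERK arm, went the other way from Hspa5, Sdf2l1 and Pdia4. PERK activity was not measured, and whether PERK set the level of these outputs was not tested. Of 10 tested genes, 9 fell and 0 rose by edgeR (median -0.76), against 10.2% of all tested genes that fell, and none rose at an unadjusted p under 0.05 or by DESeq2. Atf4 had 104, 111 and 92.1 CPM in si-METTL3 and 181, 186 and 218 CPM in si-NC (log2 fold change -0.93, SE 0.10, edgeR adjusted p = 0.00252). Ddit3, which encodes CHOP, fell by 1.14, Trib3 by 0.93, Ppp1r15a by 0.90 and the abundant asparagine synthetase gene Asns by 0.37 on the log2 scale. The Asns call held in 2 of 6 fits without a library and the others in 6 of 6. Among 17 tested cytosolic and mitochondrial heat shock genes, 3 fell and 0 rose by edgeR, against 10.2% and 8.67% of all tested genes. Their median was -0.07, with 0 higher at an unadjusted p under 0.05 and 0 by DESeq2. The lower ones were Hspe1 (-0.48), Hspa9 (-0.35) and Hspa4 (-0.24), while Hspa8, the main cytosolic HSP70 of the list at 2232 FPKM, had a log2 fold change of -0.05 (edgeR adjusted p = 0.70). After length and GC correction Hspa8 turned to 0.12 (edgeR adjusted p = 0.0223), and 2 heat shock genes passed as higher and 2 as lower.

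In the PERK arm 5 to 9 of the 9 calls remained when a library was left out. The further ER and heat shock genes had 29 calls among 141 tested over all 6 libraries. Without replicate 1, 2 or 3 of si-METTL3 they had 16, 8 and 7, against 10.3%, 5.15% and 4.99% of all tested genes. Without replicate 1, 2 or 3 of si-NC they had 7, 66 and 18, against 5.66%, 36.8% and 12.2%. The calls of Creb3l2 and Fkbp14 held in all 6 such fits, that of Sdf2 in 4, those of Dnajc10, Ero1lb, Ube2g2 and Hspa9 in 3, and those of Pdia3, Spcs2, Hspa4 and Hspe1 in 2. The remaining calls named outside the PERK arm held in 1. After length and GC correction 10 of the 23 further chaperone genes passed as higher and 1 as lower, 7 and 2 of the 19 disulfide isomerases and oxidases, and 7 and 3 of the 32 translocon and glycosylation genes. The shares of all tested genes were 15.5% higher and 13.0% lower. Over all 7 lists 52 genes passed, 31 higher and 21 lower. Edem1 (0.11, edgeR adjusted p = 0.298) and Hspe1 (-0.20, edgeR adjusted p = 0.10) no longer passed.

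**Figure D4:**
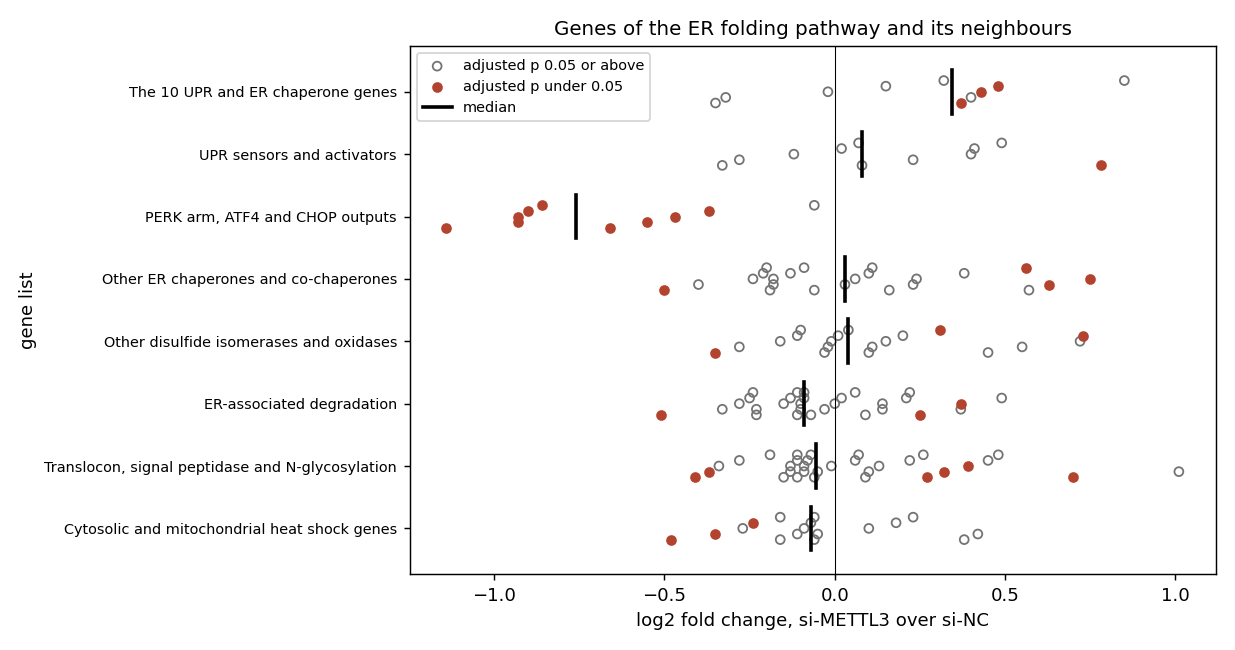
Log2 fold change of si-METTL3 over si-NC (horizontal axis) for every tested gene of the 10 UPR and ER chaperone genes and 7 further lists (rows); filled points passed an adjusted p of 0.05 over all tested genes, and black bars mark list medians. The PERK arm lies below 0 for 10 of 10 genes with a median of -0.76, whereas the medians of the other further lists lie between -0.09 and 0.08.

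The genes whose CPM followed Hspa5 most closely over the 6 libraries were F2r (Pearson r = 0.9964), which encodes a thrombin receptor, Pdia3 (0.9961), Flt1 (0.9942), a VEGF receptor gene, the lipid kinase gene Pip4k2a (0.9938) and Ypel2 (0.9927). They were taken from 10098 genes with at least 5 CPM on average, of which 372 had an r of at least 0.95. These values are a description over 6 libraries in 2 groups.

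Transcripts annotated as noncoding at 3 of the 10 genes appeared in the separate lncRNA table, in which 0.733% of 5728 tested transcripts passed the threshold. There were 6, of which 2, both at Canx, had enough counts to be tested. The longer of these, ENSMUST00000146979 (708 nt), had 502, 762 and 539 CPM of that table in si-METTL3 and 363, 456 and 487 CPM in si-NC. All si-METTL3 libraries were higher, but the log2 fold change of 0.47 (SE 0.20) did not pass (edgeR adjusted p = 0.332). For ENSMUST00000155801 the groups overlapped (0.51, SE 0.62, edgeR adjusted p = 0.742). In the edgeR fit used throughout, neither transcript passed (0 at an unadjusted p under 0.05). At an adjusted p under 0.05 DESeq2 and limma on FPKM also called 0. At an unadjusted p under 0.05 both limma fits had 1 of the 2, and DESeq2 had 1 of all 6. At that level edgeR had 1 of the 2 without si-METTL3 replicate 1, and 1 of the 2 with a replicate block. Without a count filter edgeR had 1 of all 6. How reads shared with Canx mRNA were divided is not stated. The remaining transcripts, at Canx, Pdia4 and Pdia6, had at most 10 counts in any library.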

How the data were processed

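RNA sequencing of 6 GC-1spg libraries was deposited as an mRNA table per gene and an lncRNA table per transcript. Per the file headers, the authors deposited counts and FPKM values for each library, and every count was a whole number. RSEM, StringTie, Bowtie2 and fastp and the mouse build mm9 are named in the submitters' processing notes, and versions, roles and strand handling are not given in the sources used here. The authors also deposited log2 fold changes and p-values, without naming their test. The 10 genes and the further lists were chosen with earlier results of these data known. All columns of counts and FPKM were mapped to libraries by title.

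Counts were tested with edgeR 4.0.16 (R 4.3.3): TMM normalization, filterByExpr, a quasi-likelihood fit of the group, Benjamini-Hochberg adjustment across all tested genes and a threshold of 0.05. Standard errors were derived from the F statistic and the fold change. Alternatives were DESeq2 1.42.0, limma 3.58.1 on log2(FPKM + 1) and log2(FPKM + 0.1), RLE factors, no filter, each library left out, a replicate block, and offsets smoothed per library on transcript length and GC content (mgcv 1.9.3, GENCODE M21, GRCm38, in which 22255 of 22298 identifiers were found; GC content and length are those of the longest coding transcript). Coordinates are those of GRCm38 and none was converted from mm9. The test was also tried on simulated counts. Genes were named by rule: the 10 genes, Mettl3, of each further list all called genes (at most 4 each way) and the most abundant, and the 5 genes closest to Hspa5. Figures were drawn with matplotlib 3.10.9.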

Additional observations from a re-analysis of the deposited data

How the results depend on the processing

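The 10 genes gave 130 comparisons with an alternative, of which 97 kept both direction and side of the threshold, 12 lost a call, 17 gained one and 4 changed sign. Against 3 of the 10 genes called over all libraries, DESeq2 called 6 and the length and GC correction 8, and leaving out a library gave 0 to 7. For all mRNA genes, 2468 were called, 3718 with the length and GC correction, and 665 to 4917 with a library left out. The further list genes numbered 29, 52 with the length and GC correction, and 7 to 66 with a library left out. The replicate block, which took the replicate numbers of the titles as pairs, called 1273 of all genes, 17 of the further list genes and 2 of the 10 genes (Hspa5 and Pdia4). Same-numbered libraries deviated together with r of 0.23, 0.27 and -0.43, and si-METTL3 replicate 1 correlated best with si-NC replicate 3 (0.50), so the numbers were not taken as pairs. Sign changes concerned Dnajb9 (0.01 in both limma fits, -0.18 to 0.19 with a library left out), Vcp (-0.00176 with RLE factors, -0.00943 without a filter, -0.00667 with DESeq2, -0.11 to 0.06 with a library left out), Rpn2 (0.04) and Hspa8 (0.12), the last pair after length and GC correction. The cause of these differences was not tested. No count of member transcripts in the lncRNA table changed from 0 under any alternative run, and the length and GC correction was not planned for that table. Depth was not short for the 10 genes, whose lowest count in a library was 434 (Dnajb9).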
